A study of Brassica oleracea var. capitata with 6 samples.

Results

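*Bol035700* and *Bol036039* are 2 cabbage (*Brassica oleracea* var. *capitata*) genes that the study describes as encoding long-chain-fatty-acyl-CoA reductases. They are 2 of the 31497 genes and new loci in the deposited gene table, and they were taken from it by their identifiers. The study had singled both out as up-regulated genes in the same libraries, so that their rise is described here and is not independent evidence. The material was field-grown leaves at the harvesting stage, with 3 RNA-seq libraries of *nwgl* (non-wax glossy) plants and 3 of wild-type (WT) plants. The libraries are biological replicates, and whether each came from 1 plant or from a pool is not given in the sources used here. The *nwgl* phenotype was found in the inbred line G287. It is inherited as a dominant trait of a single locus at the end of chromosome C08, and the causal lesion is not known, so that *nwgl* stands for a phenotype and not for a defined allele. The table pairs no identifier with a gene name, and the role of every gene below is the study's annotation.

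Fatty-acyl-CoA reductases convert very long chain acyl-CoAs, the products of fatty acid elongation, into primary alcohols. In the epidermis of *Arabidopsis* this is the alcohol-forming branch of cuticular wax synthesis, and CER4 is the reductase known for it. The alkane-forming branch, in which CER1 takes part, competes for the same acyl-CoAs. Other *Arabidopsis* reductases of the family make the primary alcohols of suberin, the lipid barrier of roots, seed coats and wounded tissue.

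Expression was measured as FPKM, a fragment count scaled to transcript length and library size, in which levels of different genes can be compared. A library listed 24593 to 27587 genes above 0, with a median FPKM of 1.78 to 2.75. The 10 most abundant genes took 22.7% to 57.3% of a library's summed FPKM, which can shift all other values of that library, so that median-of-ratios scaling was also tried. *Bol018504*, the CER1 gene of the mapping interval, had 5.20, 5.09 and 5.97 FPKM in the *nwgl* libraries and 114, 142 and 44.0 FPKM in the WT libraries. WT replicate 3 was the lowest WT library for it.

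Both reductase genes were expressed well above the typical gene in *nwgl* leaves, whereas *Bol035700* was weakly expressed and *Bol036039* almost silent in WT leaves. *Bol035700* had 12.4, 22.3 and 18.7 FPKM in the *nwgl* replicates, against 1.01, 0.971 and 0.849 FPKM in the WT replicates. *Bol036039* had 16.0, 29.7 and 19.6 FPKM in the *nwgl* replicates, against 0.0434, 0.0143 and 0.0399 FPKM in the WT replicates. For each gene the lowest *nwgl* library lay far above the highest WT library, and *nwgl* replicate 1 was the lowest and *nwgl* replicate 2 the highest of the *nwgl* libraries.

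**Figure D1:**
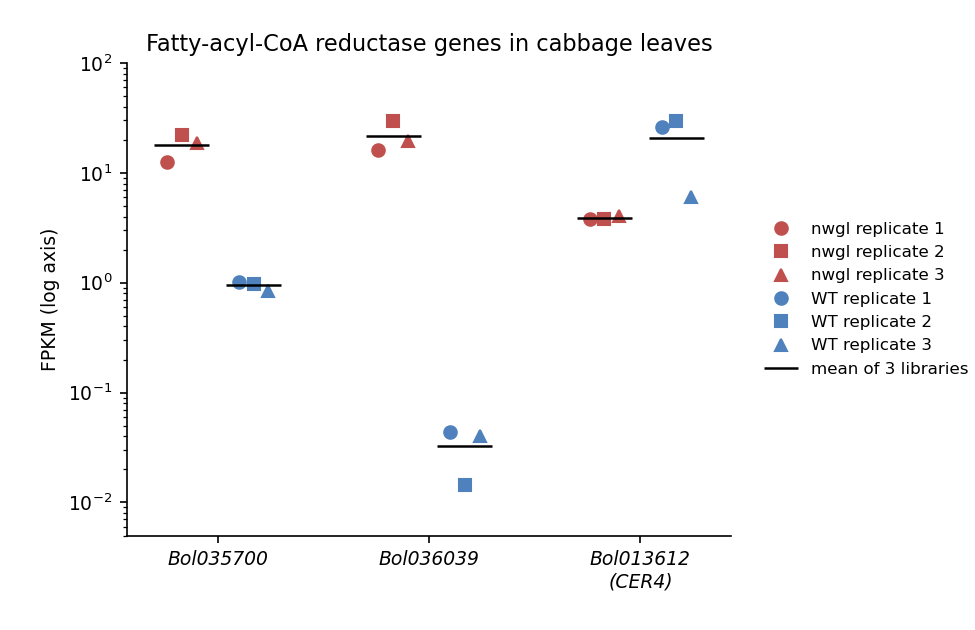
FPKM (log axis) of *Bol035700*, *Bol036039* and the CER4 gene *Bol013612* in each *nwgl* (red) and WT (blue) library, with a line at the mean of the 3 libraries. *Bol036039* lies between 16.0 and 29.7 FPKM in *nwgl* leaves and at or below 0.0434 FPKM in WT leaves.

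The mean of *Bol035700* was 17.8 ± 4.98 FPKM in *nwgl* and 0.945 ± 0.0855 FPKM in WT leaves (SD, n = 3 each), an 18.8-fold ratio of the means. On the log2(FPKM + 0.1) scale, it was higher in *nwgl* by 4.06 (standard error 0.38, 95% interval 3.22 to 4.91, adjusted p = 0.000746 from limma over 24332 genes). The mean of *Bol036039* was 21.8 ± 7.09 FPKM in *nwgl* and 0.0325 ± 0.0159 FPKM in WT leaves (SD, n = 3 each). It was higher in *nwgl* by 7.33 on the same scale (standard error 0.41, 95% interval 6.40 to 8.25, adjusted p = 0.000147 from limma). Of all genes tested, 4.89% passed the thresholds used here, an adjusted p under 0.05 and a log2 change of at least 1 in size, and 3.69% did so with higher values in *nwgl*. *Bol036039* ranked 1 and *Bol035700* ranked 244 by fitted log2 change among the 24332 genes. Both genes passed the thresholds with each library left out in turn and under all 8 other settings. The size of the *Bol036039* change depends on the pseudocount, since its WT values are far below 0.1 FPKM, being 4.42 where 1 FPKM was added and 9.03 where 0.01 FPKM was added. In whole leaves, more cells that express a gene and more RNA in each cell cannot be told apart.

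The spread within a genotype depended on scaling, and not in 1 direction. With median-of-ratios scaling, *Bol035700* had 13.7, 17.7 and 21.4 and *Bol036039* had 17.7, 23.6 and 22.4 scaled FPKM in *nwgl* replicates 1, 2 and 3. The coefficient of variation among *nwgl* libraries was 21.8% for *Bol035700* after scaling, against 28.0% in FPKM as deposited. For *Bol036039* it was 14.8% after scaling, against 32.5% as deposited. Among WT libraries scaling widened the spread, to 15.8% against 9.06% for *Bol035700* and to 59.1% against 48.8% for *Bol036039*. *nwgl* replicate 1 stayed the lowest for both genes, and the order of the other two differed between the genes.

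Ranked within each library, both genes stood in the upper part of the table in *nwgl*. In WT *Bol035700* stood near the middle of the table and *Bol036039* in its lower part. *Bol035700* exceeded 90.1%, 92.0% and 95.0% of the listed genes in the *nwgl* libraries, and 48.7%, 44.3% and 48.3% in the WT libraries. *Bol036039* exceeded 92.9%, 94.6% and 95.4% in the *nwgl* libraries, and 21.9%, 18.8% and 26.1% in the WT libraries. In the *nwgl* libraries *Bol036039* stood at 7.50 to 11.5 times the median of the genes above 0 and *Bol035700* at 5.82 to 9.70 times. In the WT libraries *Bol036039* was at 0.00521 to 0.0244 times that median.

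A low basal level was common, and few genes that shared it reached the *nwgl* level of a member. Both members were chosen as up-regulated genes of these libraries. The counts therefore describe where they stand and are not a test. Of 2513 other genes whose WT mean was within 2-fold of that of *Bol036039*, 1 had an *nwgl* mean at or above that of *Bol036039*, and the median *nwgl* mean of the 2513 was 0.0363 FPKM. The count leaves out near cases, such as *Bol037082*, with means of 0.0276 FPKM in WT and 17.4 FPKM in *nwgl*. Of 5127 other genes whose WT mean was within 2-fold of that of *Bol035700*, 41 reached its *nwgl* mean, and the median was 0.977 FPKM.

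**Figure D2:**
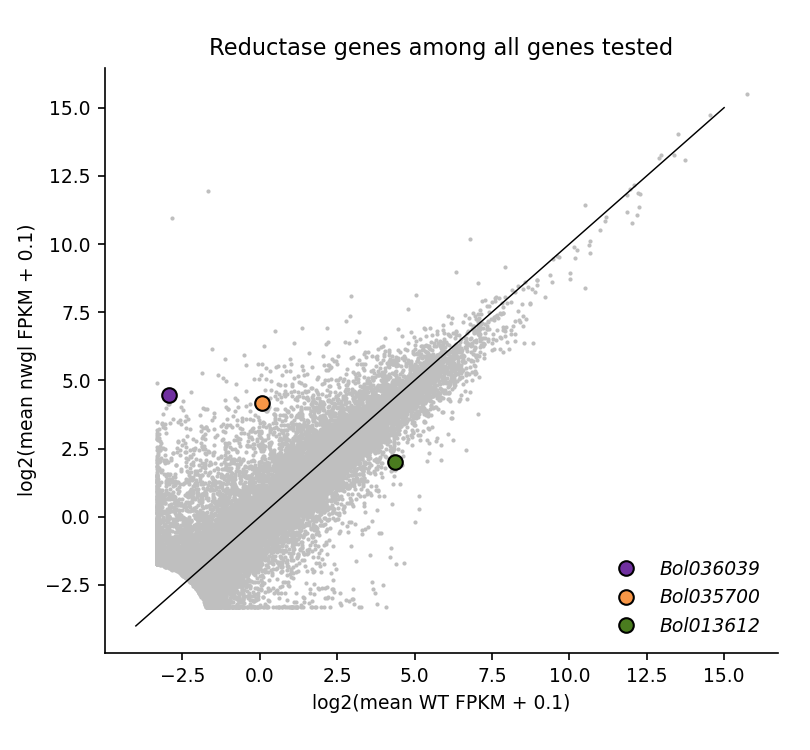
Mean *nwgl* level against mean WT level, both as log2(FPKM + 0.1), for the 24332 genes tested (grey) with the line of equal level. *Bol036039* and *Bol035700* lie far above the line and the CER4 gene *Bol013612* lies below it.

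The 2 reductase genes were unequal in WT leaves and nearly equal in *nwgl* leaves. *Bol036039* stood at 1.29, 1.33 and 1.05 times the FPKM of *Bol035700* in the *nwgl* replicates, and at 0.0428, 0.0147 and 0.0470 times in the WT replicates. The log2(FPKM + 0.1) difference of *Bol036039* minus *Bol035700* averaged 0.28 ± 0.19 in *nwgl* and -2.98 ± 0.23 in WT (SD, n = 3 each). On this scale the change of *Bol036039* was larger than that of *Bol035700* by 3.26. The libraries of the genotypes did not overlap, and an exact two-sided permutation test gave p = 0.1, the smallest that 3 libraries against 3 allow. With another pseudocount the difference was between 1.18 and 4.85. In plain FPKM the genes gained similar amounts, 21.8 for *Bol036039* and 16.9 for *Bol035700*.

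The third reductase that the study names, *Bol013612*, is the cabbage homolog of CER4. It had 3.80, 3.79 and 4.09 FPKM in the *nwgl* replicates, against 26.3, 29.5 and 6.06 FPKM in the WT replicates. Its log2 change of -2.08 (standard error 0.58, limma adjusted p = 0.0836) did not pass the thresholds. The study called *Bol013612* down-regulated at the same thresholds, with DESeq instead of limma on FPKM. WT replicate 3 lay nearest the *nwgl* libraries, and without it the change was -2.81 (adjusted p = 0.00637 from limma). Omitting any other single library did not make *Bol013612* pass. Its change shrank to -1.76 without WT replicate 1 (limma adjusted p = 0.240) and to -1.67 without WT replicate 2 (limma adjusted p = 0.244). Omitting an *nwgl* replicate left it between -2.12 and -2.06 (limma adjusted p between 0.150 and 0.257).

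*Bol035700* and *Bol036039* held most of the summed level of the 3 reductase genes in *nwgl*, and the CER4 gene held most of it in WT. The pair made up 88.2%, 93.2% and 90.4% of the summed FPKM of the 3 genes in the *nwgl* replicates, and 3.87%, 3.23% and 12.8% in the WT replicates. The summed FPKM was 32.2, 55.8 and 42.4 in the *nwgl* replicates and 27.3, 30.5 and 6.94 in the WT replicates. The sum averaged 43.5 ± 11.8 FPKM in *nwgl* and 21.6 ± 12.8 FPKM in WT (SD, n = 3 each), without overlap, with p = 0.1 in the exact two-sided permutation test. The highest WT library and the lowest *nwgl* library were close, at 30.5 and 32.2 FPKM. Without WT replicate 3 the difference of the sums fell to 14.5 FPKM, against 21.9 FPKM with it. The study named these 3 genes because it had called them as differing in the same libraries. The change in their shares follows from that choice and is not independent evidence. Reductase genes that the study did not name are not in the sum, so that it does not give the makeup of all reductase expression.

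**Figure D3:**
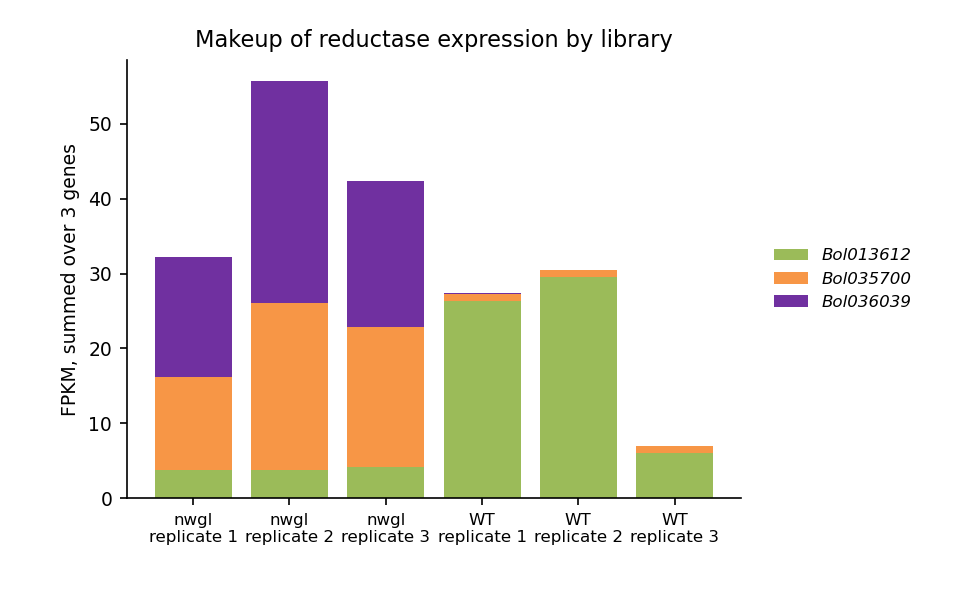
FPKM of *Bol013612*, *Bol035700* and *Bol036039* stacked for each library, *nwgl* on the left and WT on the right. *Bol035700* and *Bol036039* make up 88.2% to 93.2% of the bar in *nwgl* and 3.23% to 12.8% in WT.

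Whether the rise was confined to the reductase genes was examined in the 10 Bol numbers below and the 10 above each. Bol numbers follow the order of genes only as far as the annotation numbers them along its scaffolds, and the table gives no positions. Around *Bol035700*, 15 of these 20 numbers were listed and 12 were expressed highly enough to be tested. Of the 12, 1 passed the thresholds, against 4.89% of all genes, and 5 had an unadjusted p under 0.05, against 16.2%. The median log2 change of the 12 was -0.28, against -0.04 over all genes tested.

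*Bol035698*, which lies 2 numbers below *Bol035700*, was the neighbour that passed. It had 2.25, 3.90 and 4.50 FPKM in the *nwgl* replicates, against 0.125, 0.309 and 0.122 FPKM in the WT replicates. Its log2 change of 3.68 (standard error 0.48, limma adjusted p = 0.00329) passed with each library left out and under all 8 other settings. The ratio of its mean levels was 19.1, against 18.8 for *Bol035700*, at a lower level. With a pseudocount of 0.01 its log2 change was 4.26, against 4.18 for *Bol035700*. With a pseudocount of 1 the changes parted, at 1.91 for *Bol035698* and 3.24 for *Bol035700*.

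Others below *Bol035700* had higher values in *nwgl* without passing. *Bol035696* had 14.0, 15.6 and 11.9 FPKM in the *nwgl* replicates, against 1.34, 7.75 and 3.91 FPKM in the WT replicates (log2 change 1.96, adjusted p = 0.0994 from limma). *Bol035694* had 4.53, 2.51 and 0.0886 FPKM in the *nwgl* replicates and was listed at 0 in all WT replicates (adjusted p = 0.0850 from limma). Without *nwgl* replicate 3 *Bol035694* passed (adjusted p = 0.00200 from limma), and without WT replicate 2 so did *Bol035696* (adjusted p = 0.0465 from limma). The log2 change of *Bol035693* was -1.64 and passed only without WT replicate 3, as -2.26 (adjusted p = 0.0459 from limma).

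On the other side, no neighbour of *Bol035700* was higher at a level that could be tested. *Bol035701*, the next number, had 5.29, 8.97 and 5.50 FPKM in the *nwgl* replicates and 6.74, 10.9 and 6.57 FPKM in the WT replicates, with a log2 change of -0.29 (adjusted p = 0.847 from limma). *Bol035703* had 3.29, 3.96 and 2.61 FPKM in the *nwgl* replicates, against 9.51, 12.0 and 7.21 FPKM in the WT replicates. Its genotypes did not overlap, and its log2 change of -1.50 missed the threshold (adjusted p = 0.0548 from limma) but passed with median-of-ratios scaling (adjusted p = 0.0129), quantile normalization or the replicate number as a block. *Bol035706*, too low to be tested, was slightly higher without overlap, at 0.0692, 0.178 and 0.0620 FPKM in the *nwgl* replicates, against 0.0501, 0.0587 and 0.0293 FPKM in the WT replicates. The 4 tested numbers above the gene had log2 changes between -1.50 and -0.29. *Bol035699*, the number just below *Bol035700*, is not listed in the table and was not analysed here.

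Around *Bol036039*, 17 of the 20 numbers were listed and 14 were tested. Of the 14, 3 passed the thresholds, 2 higher and 1 lower in *nwgl*, and the median log2 change was 0.20. That median depended on the window, being 0.89 with 5 numbers on each side and -0.04 with 20. Higher calls made up 3.69% and lower calls 1.2% of all genes tested. Over both neighbourhoods 4 of 26 tested genes passed. Libraries of the genotypes were fully separated for 8 of the 26, against 20.3% of all genes tested, and for 6 of these the *nwgl* libraries were the higher ones, against 11.8%. Of the 32 listed neighbours, 3 were listed at 0 in all WT libraries and above 0 in at least 2 *nwgl* libraries, against 2.75% of the table. With 20 numbers on each side the same counts of 1 and 3 were found, among 25 and 28 tested genes, and no gene at a distance of 11 to 20 numbers passed. Full separation did not fall off in the same way. At that distance it held for 4 of 13 tested genes around *Bol035700* and 4 of 14 around *Bol036039*. *Bol035689*, 11 numbers below *Bol035700*, just missed the threshold (log2 change -2.30, adjusted p = 0.0508 from limma).

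*Bol036035*, which lies 4 numbers below *Bol036039*, had 1.64, 3.40 and 0.696 FPKM in the *nwgl* replicates and was listed at 0 in all WT replicates. It passed (adjusted p = 0.00626 from limma), also with each library left out, but reached the filter for testing only through its *nwgl* values. *Bol036047*, 8 numbers above, had 4.88, 3.44 and 2.91 FPKM in the *nwgl* replicates, against 0.791, 0.381 and 0.465 FPKM in the WT replicates. Its log2 change was 2.59 (adjusted p = 0.0104 from limma), and without *nwgl* replicate 1 the adjusted p from limma was 0.0812. *Bol036043*, 4 numbers above, went the other way. It had 0.834, 0.988 and 1.40 FPKM in the *nwgl* replicates, against 28.5, 7.63 and 5.31 FPKM in the WT replicates. Its log2 change of -3.20 (adjusted p = 0.0169 from limma) did not pass without *nwgl* replicate 1 (adjusted p = 0.0822), without *nwgl* replicate 2 (adjusted p = 0.0676) or with no filter on low genes (adjusted p = 0.0592). Without *nwgl* replicate 1, only *Bol036035* of these neighbours passed.

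The numbers next to *Bol036039* were near the floor of the table. *Bol036038*, just below it, had 0.718 and 0.740 FPKM in *nwgl* replicates 1 and 2 and was listed at 0 in *nwgl* replicate 3 and in all WT replicates (adjusted p = 0.270 from limma). *Bol036040*, just above it, was listed at 0 in 5 libraries and at 0.174 FPKM in *nwgl* replicate 2. *Bol036041* had 8.16, 18.0 and 10.5 FPKM in the *nwgl* replicates and 17.6, 20.8 and 7.06 FPKM in the WT replicates, with a log2 change of -0.25 (adjusted p = 0.912 from limma). The next number that was expressed in every library thus did not move with *Bol036039*.

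**Figure D4:**
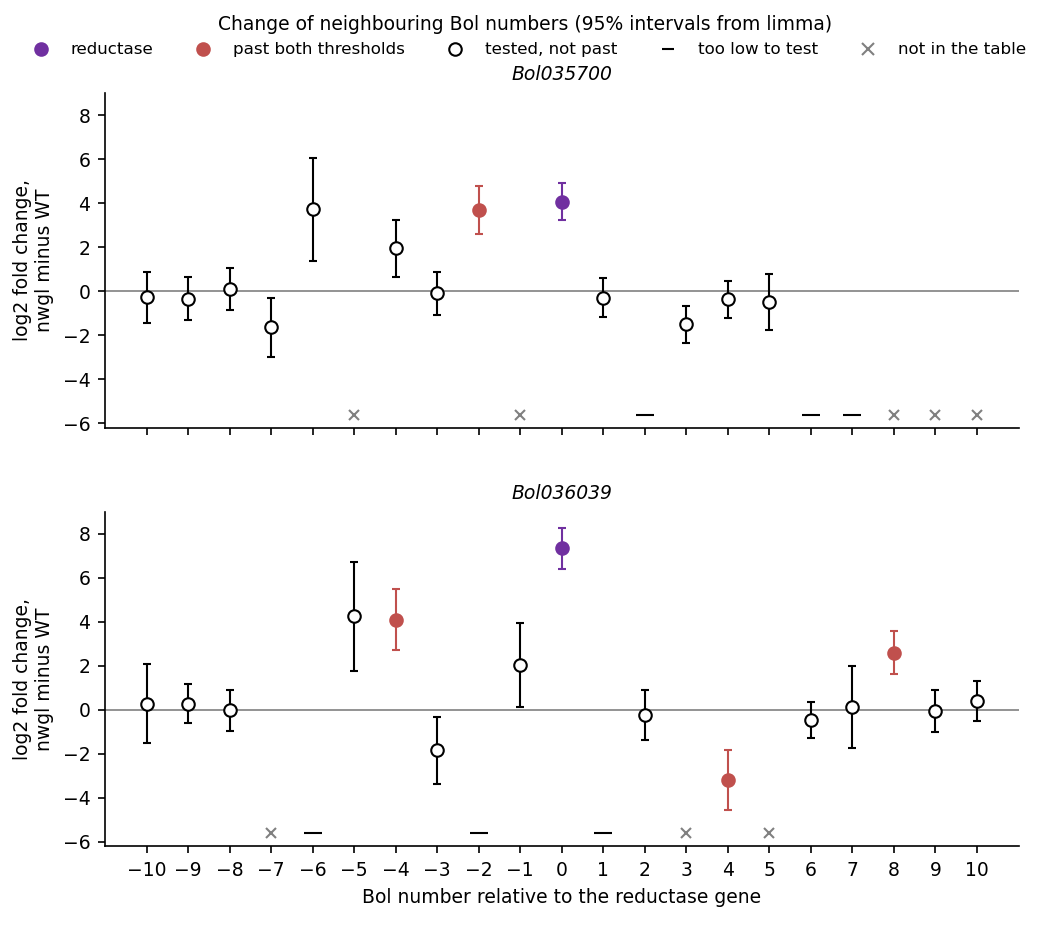
Log2 fold change of *nwgl* minus WT with its 95% interval from limma, for the 10 Bol numbers on each side of *Bol035700* (top) and *Bol036039* (bottom). Filled red points passed both thresholds, 1 around *Bol035700* and 3 around *Bol036039*. The intervals of *Bol035694*, *Bol035696* and *Bol035698* overlap that of *Bol035700*, and the interval of *Bol036034* overlaps that of *Bol036039*.

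Several neighbours that were near 0 in WT were also near 0 in *nwgl* replicate 3, in which the reductase genes were high. *Bol036034*, 5 numbers below *Bol036039*, had 5.32, 7.06 and 0.164 FPKM in the *nwgl* replicates, against 0, 0.0338 and 0.0149 FPKM in the WT replicates (adjusted p = 0.0631 from limma). Without *nwgl* replicate 3 *Bol036034* passed (adjusted p = 0.00113 from limma), as did *Bol036038* (adjusted p = 0.0211 from limma), so that 5 numbers around *Bol036039* passed in place of 3. In *nwgl* replicate 3, *Bol035700* had 18.7 and *Bol036039* had 19.6 FPKM, both within the range of the other *nwgl* libraries. *Bol035694*, *Bol036034* and *Bol036038* were each at least 3 lower on the log2(FPKM + 0.1) scale in *nwgl* replicate 3 than in both other *nwgl* libraries, 3 of the 26 tested neighbours, against 0.444% of all genes tested. This criterion was set after the values of these genes were seen. Their share is therefore fixed by it and cannot be read against that of all genes. *Bol035694*, *Bol036035* and *Bol036038*, listed at 0 in all WT libraries, also reached the filter for testing only through their *nwgl* values. The same holds for *Bol036034*, with a WT mean of 0.0162 FPKM.

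**Figure D5:**
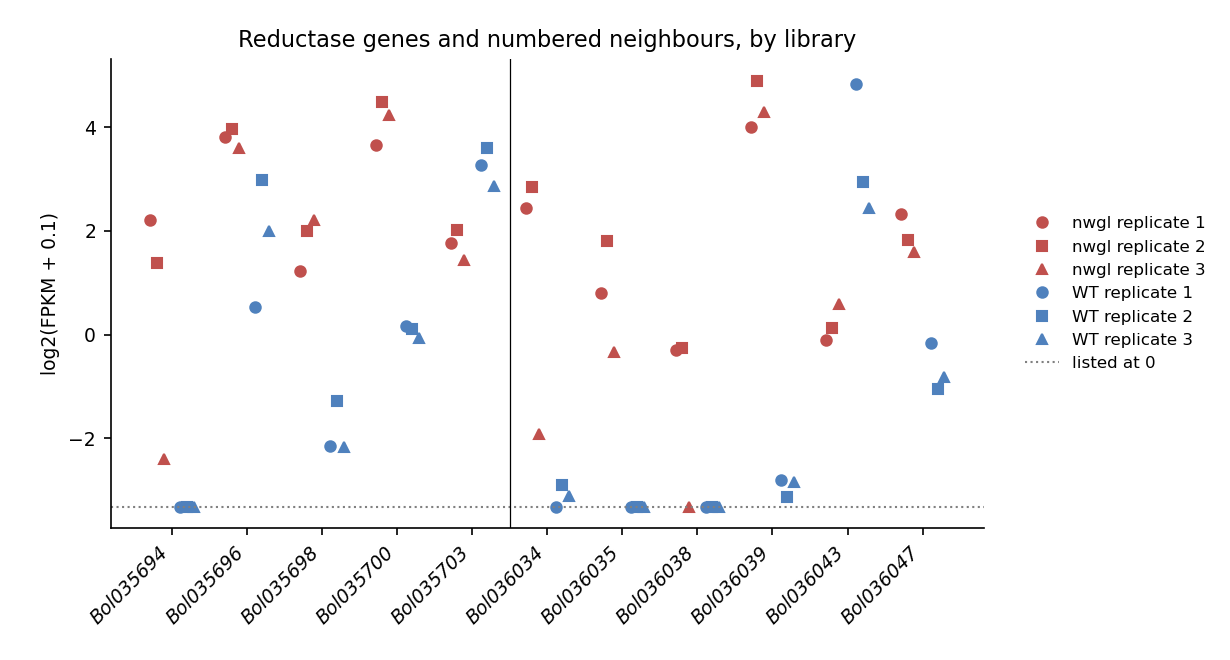
Log2(FPKM + 0.1) in each library for *Bol035700* and 4 numbered neighbours (left of the line) and for *Bol036039* and 5 (right of it), *nwgl* in red and WT in blue, with a dotted line for genes listed at 0. The triangle of *nwgl* replicate 3 is near the dotted line for *Bol035694*, *Bol036034* and *Bol036038*, and among the other *nwgl* libraries for both reductases.

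A long noncoding RNA (lncRNA) of the region was also higher. The study listed targets only for lncRNAs that it had called as differing in the same libraries. A difference was thus fixed by the choice of this lncRNA, and is not independent evidence. It cannot be read against the shares of all lncRNAs given below. The transcript MSTRG.84152.1 is the lncRNA whose list of nearby genes in the study's supplement holds *Bol035700*, with *Bol035693* to *Bol035704* as the other entries. It had 0.800, 1.07 and 1.295 FPKM in the *nwgl* replicates, against 0.0704, 0.0519 and 0.125 FPKM in the WT replicates. The genotypes did not overlap, as was so for 19.4% of the lncRNAs tested. The log2 change was 2.66 (standard error 0.55, limma adjusted p = 0.0309 over 2340 lncRNAs, of which 2.78% passed and 1.92% passed with higher values in *nwgl*). The call was lost with any library left out, with adjusted p between 0.0652 and 0.148 from limma, while the log2 change stayed between 2.51 and 2.83. In every *nwgl* library the transcript was far below *Bol035700*. MSTRG.84152.2, from the same locus, had 0.0357, 0.0144 and 0.0142 FPKM in the *nwgl* replicates and 0.0794, 0.341 and 0 FPKM in the WT replicates, too low to be tested, so that the rise was seen for 1 of the 3 transcripts of the locus. The supplement also gives *Bol036035*, the neighbour of *Bol036039* described above, as a *trans* target of MSTRG.84152.1 by sequence complementarity. Of the 9 listed genes other than *Bol035700* in the nearby list, 8 were tested and 1, *Bol035698*, passed, against 4.89% of all genes tested. These genes all lie within 10 numbers of *Bol035700*, so that this is the same call as the one counted above.

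Among the other 7 genes that the study places in wax biosynthesis, 3 passed the thresholds, 2 higher and 1 lower in *nwgl*. The study chose these genes on the same libraries, so that this share cannot be read against the 4.89% of all genes. In the alkane-forming branch, the lower gene was *Bol018504* (log2 change -4.02, adjusted p = 0.00242 from limma). The CER1 gene *Bol025577* was higher, at 1.36, 0.398 and 2.77 FPKM in the *nwgl* replicates, against 0.0296, 0.0139 and 0.00731 FPKM in the WT replicates (adjusted p = 0.0202 from limma). It was as near the floor in WT as *Bol036039*, and like it reached the filter for testing only through its *nwgl* values. *Bol025577* had a lower level than *Bol036039* in every *nwgl* library. It passed without *nwgl* replicate 2 or 3 but not without any of the other 4 libraries (adjusted p up to 0.0998 from limma), nor with a pseudocount of 1 (adjusted p = 0.0819) or no filter on low genes (adjusted p = 0.0571).

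Of the AP2-like factors, homologs of the *Arabidopsis* wax activator WRI4, *Bol038193* had 1.75, 3.51 and 1.98 FPKM in the *nwgl* replicates, against 0.341, 0.216 and 0.255 FPKM in the WT replicates (adjusted p = 0.0105 from limma). Without *nwgl* replicate 2 its adjusted p from limma was 0.0565. The log2 changes of the genes that did not pass were 1.91 for the AP2-like *Bol038557*, 2.002 for the CER1 gene *Bol025251*, 2.26 for *Bol024192*, which encodes a 3-ketoacyl-CoA synthase of fatty acid elongation, and -2.08 for *Bol013612*. With median-of-ratios scaling, *Bol038557* and *Bol013612* passed as well. The study called each gene that did not pass here as differing, with DESeq instead of limma on FPKM. Both reductases had the largest *nwgl* levels of the 9 wax genes, since the highest *nwgl* value of any other gene was 10.6 FPKM, in *Bol038557*.

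The annotated genes most like each reductase were sought among 15871 others with a mean of at least 1 FPKM, as the root mean square difference of log2(FPKM + 0.1) over the 6 libraries. A correlation is not given, since the values of each member lie in widely separated groups by genotype. Nearest to *Bol036039* was *Bol037082*, which differed by 0.43 per library, with 15.8, 14.7 and 21.8 FPKM in the *nwgl* replicates and 0.0247, 0.0135 and 0.0447 FPKM in the WT replicates. *Bol012069* followed at 0.53. Nearest to *Bol035700* was *Bol043672*, which differed by 0.54, with 18.2, 20.8 and 9.98 FPKM in the *nwgl* replicates and 1.22, 1.58 and 0.605 FPKM in the WT replicates. *Bol035095* followed at 0.57. The reductases differed from each other by 2.13 per library, a distance that includes their unequal levels in WT. By this measure the nearest genes to each were others, none of which the table names. The measure compares levels, and not whether genes rise and fall together.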

How the data were processed

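Total RNA of *nwgl* and WT leaves was made into directional libraries, 3 of each genotype. Reads were cleaned by the authors, mapped with HISAT2 (version not given in the sources used here) to the Bolbase cabbage assembly, and assembled with StringTie 1.3.1. The authors deposited FPKM for 31497 genes and for 4459 lncRNA transcripts, without counts, lengths or positions. Precision was therefore judged from the replicates. How reads shared by related or overlapping genes were assigned, and whether strand was used, is not given in the sources used here, so values of related reductases are uncertain to that extent.

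limma 3.58.1 (R 4.3.3, lmFit, eBayes with trend) was run once on genes and once on lncRNAs, on log2(FPKM + 0.1), a scale that understates changes of low genes. Tests covered the 24332 genes and 2340 lncRNAs whose mean reached 0.1 FPKM. To pass, a gene needed an adjusted p (Benjamini-Hochberg) below 0.05 with a log2 change of 1 or more in size. Single values per library were compared by exact two-sided permutation in Python 3.11.15 (numpy 2.4.6, pandas 2.3.3, matplotlib 3.10.9). The fit was tested on simulated data.

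Alternatives were pseudocounts of 1 and 0.01, the replicate number as a block, quantile normalization, scaling by the median of ratios, eBayes with no trend, a minimum mean of 1 FPKM or no minimum, windows of 5 or 20 Bol numbers, and leaving out each library. The members, lists and tests were chosen with earlier results of these data known, and the 2-fold windows on WT level were set after the values were seen. Named genes are both members, neighbours within 10 numbers that passed, did not overlap or lie next to a member, the study's other wax genes, the lncRNA locus with its listed targets, and the 2 genes nearest each member. Genes most like a member by Pearson correlation, also in that rule, are left out because the values of each member lie in widely separated groups by genotype. *Bol036041*, chosen after its values were seen, is described beside the named genes.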

Additional observations from a re-analysis of the deposited data

How the results depend on the processing

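*Bol035700* and *Bol036039* passed the thresholds under all 8 alternatives that kept every library and in all 6 fits that left out a library. With a library left out, the log2 change stayed between 3.88 and 4.30 for *Bol035700* and between 7.08 and 7.52 for *Bol036039*. Whether numbering pairs the libraries was not settled. Deviations from the genotype means correlated at -0.026, 0.125 and 0.182 across genes for replicate numbers 1, 2 and 3. Between libraries of unlike numbers the correlations lay from -0.259 to 0.137. With the replicate number as a block, the log2 changes were 4.06 and 7.33 as before (adjusted p = 0.00621 and 0.00494 from limma). The lncRNA MSTRG.84152.1 missed the threshold with the block (2.66, adjusted p = 0.0538 from limma) and with a pseudocount of 1 (0.92, adjusted p = 0.0875), and with a library left out its log2 change was 2.51 to 2.83. Neighbours of *Bol035700* that passed numbered 2, in place of 1, with a pseudocount of 0.01, median-of-ratios scaling, quantile normalization or the block, and 1 to 2 with a library left out. Neighbours of *Bol036039* that passed numbered 1 to 5 with a library left out, in place of 3. The neighbour *Bol035703* passed with the block (adjusted p = 0.0378 from limma). The other wax genes that passed numbered 5, in place of 3, with quantile normalization or median-of-ratios scaling, and 2 with a pseudocount of 1, no filter, or a mean FPKM of at least 1, and 2 to 3 with a library left out. Of all genes, 1190 passed, against 777 with a pseudocount of 1, 761 without a filter, 735 with a mean FPKM of at least 1, 1527 with median-of-ratios scaling, 1591 with quantile normalization, 1314 with the replicate block, and 403 (without *nwgl* replicate 1) to 1327 with a library left out, with 520 and 588 without *nwgl* replicate 2 and WT replicate 1. No log2 change recomputed under these settings changed sign, while the median log2 change of the *Bol036039* neighbours did, being 0.20 within 10 numbers and -0.04 within 20. The causes of these shifts were not tested.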
